A study of Mus musculus with 47 samples.

Results

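The comparison described here is between wild-type mouse livers taken at ZT06, the middle of the light phase, and at ZT18, the middle of the dark phase (ZT, zeitgeber time, hours after lights on). Its members are 8 of the 47 MNase-seq libraries of the study, chosen by genotype and time in the labels: 4 at ZT06 and 4 at ZT18, with replicate numbers 11, 12, 26 and 27 at each time. All were livers of wild-type C57BL/6 adults, aged 3 to 6 months, kept in 12 h of light and 12 h of dark. The design text gives 4 mice per genotype and time point, so a library is taken as 1 mouse, and p-values measure the spread between mice. The other libraries are wild-type livers at 4 further times and livers of Bmal1-/- mice, which lack the BMAL1 protein.

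CLK (CLOCK) and BMAL1 form a dimer that binds E-box elements in DNA and activates the genes of the circadian clock, among them those of its own repressors, the PER and CRY proteins. In mouse liver this dimer binds DNA mostly during the light phase. Micrococcal nuclease digests DNA between nucleosomes and spares DNA wrapped around them, so a dip in MNase signal over a site marks DNA that the nuclease reached more readily or that carried fewer nucleosomes. The title of the study names CLK:BMAL1 as a pioneer-like factor, and the comparison bears on whether nucleosome signal over its sites differs between mid-light and mid-dark.

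The authors deposited the signal as averages over groups of CLK:BMAL1 ChIP-seq peaks, in windows of 3 kb. It is given here as relative signal, in percent of the same library's mean beyond 1000 bp from the window middle (the flank), and the relative central signal is its mean within 150 bp of the middle. Of 3217 listed peaks, 1412 lay in introns, 583 at transcription start sites (TSS), 6.56% elsewhere in gene bodies, 9.14% between genes within 10 kb of a gene and 717 beyond 10 kb. The deposited averages carry no gene names, and single peaks were not analysed here.

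Relative depth, with the shallowest of the 47 libraries at 1, was 1.53, 1.44, 2.05 and 1.63 at ZT06 (numbers 11, 12, 26 and 27), and 1.32, 1.17, 1.51 and 1.63 at ZT18. The means differed by 0.257 (exact permutation test, two-sided, p = 0.171, n = 4 each). In the centre of the all-peak window, mean coverage per position was about 29417 to 44614 fragments, depending on the library. The number is inferred from the spacing of the signal values, taken as the worth of 1 fragment. Relative depth is inferred from that spacing too. It assumes that all libraries were scaled to the same total, which the sources used here do not state. At that mean coverage the counting error was 0.473% to 0.583%, which covers counting alone.

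The trough over CLK:BMAL1 peaks was deeper at ZT06. Over all peaks, relative central signal at ZT06 was 65.97%, 63.03%, 64.9% and 67.2% (numbers 11, 12, 26 and 27), and at ZT18 it was 70.4%, 73.1%, 74.6% and 72.3%. All 4 ZT06 mice lay below all 4 ZT18 mice. The means were 65.3% ± 1.77 at ZT06 and 72.6% ± 1.76 at ZT18 (SD, n = 4 each), a difference of -7.34 percentage points (SE 1.25). The exact two-sided permutation test over the 70 assignments of 8 mice gave p = 0.0286, the smallest it can give, and 0.0444 after Benjamini-Hochberg adjustment over 28 peak sets. Depth was higher on average at ZT06, and its part in the result was not tested. Number 27 had a relative depth of 1.63 at both times, with a relative central signal of 67.2% at ZT06 and 72.3% at ZT18. That is a single library at each time and no test of depth.

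In the authors' own signal units, with no scaling to the flank, the difference lay in the centre. Central signal averaged 4.44 ± 0.174 at ZT06 and 4.98 ± 0.167 at ZT18 (SD, n = 4 each; exact permutation p = 0.0286). Flank signal averaged 6.80 ± 0.182 at ZT06 and 6.86 ± 0.215 at ZT18, a difference of -0.05 that did not exceed the spread between mice (exact permutation p = 0.714).

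**Figure D1:**
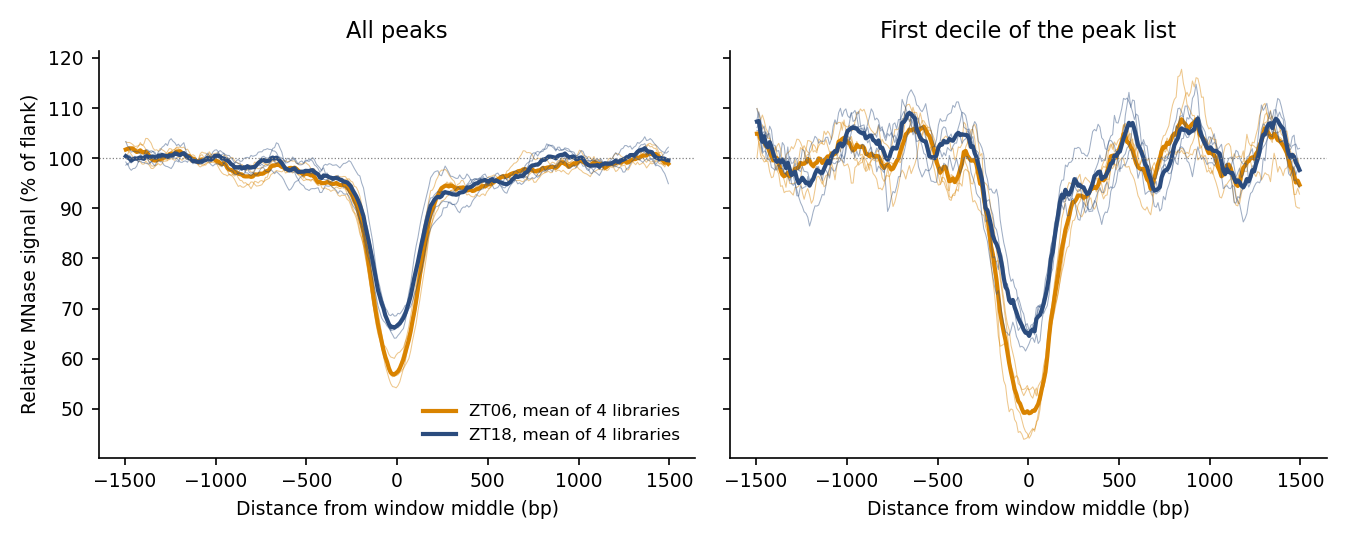
Relative MNase signal (percent of the flank) against distance from the window middle (bp), for all peaks and for the first decile of the peak list; thick lines are means of 4 libraries at ZT06 and at ZT18, thin lines single libraries. Over all peaks the mean is lowest at -15 bp at both times, at 56.9% at ZT06 and 66.2% at ZT18. The lines run together in the flanks, where the scaling gives every library the same mean.

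The difference was concentrated near the middle of the peaks. Within 50 bp of the middle, relative signal averaged 58.2% ± 2.29 at ZT06 and 67.1% ± 1.58 at ZT18, and from 50 to 150 bp it averaged 68.8% ± 2.34 at ZT06 and 75.4% ± 2.49 at ZT18 (SD, n = 4 each). These 2 of 6 distance bands had an exact permutation p of 0.0286, and none of the 6 passed after adjustment over the bands (adjusted p = 0.0857 for both). From 150 to 250 bp the means were 88.2% at ZT06 and 89.97% at ZT18 (exact permutation p = 0.486). From 500 to 750 bp they were 97.2% at ZT06 and 97.3% at ZT18 (exact permutation p = 0.886).

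Position by position, every ZT06 mouse lay below every ZT18 mouse over 230 bp of the all-peak window, of which 220 bp fell in the central 300 bp, and at no position did every ZT06 mouse lie above. Over the 8400 positions of all 28 sets, 7.15% had all ZT06 mice below and 0.5% had all ZT06 mice above. A limma fit over those 8400 positions called 2.82% lower at ZT06 and 0.0595% higher (Benjamini-Hochberg adjusted p under 0.05), and 94.5% of the lower calls lay in the centre, which holds 10% of the positions. The sets share peaks, so the 8400 positions count the same peaks repeatedly, and these shares are not of independent positions. In the all-peak profile that fit called 20 bp, at -25 and -15 bp. The largest difference, -9.45 percentage points, was at -25 bp, where the means were 56.9% at ZT06 and 66.4% at ZT18 (limma adjusted p = 0.0469). The called width rests on how variances are pooled: fitted on its own with limma, a choice made after seeing the data, the all-peak profile had 210 bp called, all within the centre. It rests on the libraries too: without number 11 at ZT06 the pooled fit called 50 bp, and without any other 1 of the 8 libraries 0 bp, while positions called over all sets lay between 0.536% and 2.46%.

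The trough changed in depth and not detectably in width. The lowest relative signal within 150 bp of the middle was 60.05%, 56.4%, 54.2% and 56.5% at ZT06 (numbers 11, 12, 26 and 27), and 65.7%, 68.5%, 65.6% and 64.1% at ZT18. The ZT06 values all lay below the ZT18 values, with a difference of means of -9.19 points (exact permutation p = 0.0286, adjusted p = 0.0476 over 5 shape measures). Left and right of the middle, the central signal was lower at ZT06 by similar amounts, with differences of -7.82 and -6.85 points (exact permutation p = 0.0286 each). The lowest signal and the signal on either side all describe trough depth. The adjusted p of 0.0476 rests on all of them reaching the smallest p. Trough width, measured at the level midway between the lowest value and the flank, averaged 290.3 ± 35.9 bp at ZT06 and 293.8 ± 48.4 bp at ZT18 (SD, n = 4 each; exact permutation p = 0.857).

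Width differed between replicate numbers at both times. At ZT06 it was 325.1 bp for number 11, 317.2 bp for number 12, 262.3 bp for number 26 and 256.4 bp for number 27, and at ZT18 it was 337.7, 331.2, 239.1 and 266.98 bp. Over the 6 wild-type times, widths ranged from 266.03 to 361.8 bp for number 11, 317.2 to 353.8 bp for number 12, 239.1 to 281.6 bp for number 26 and 252.9 to 282.9 bp for number 27. The low end for number 11, at ZT02, lay within the range of numbers 26 and 27. The sources used here do not say what a shared number marks.

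**Figure D2:**
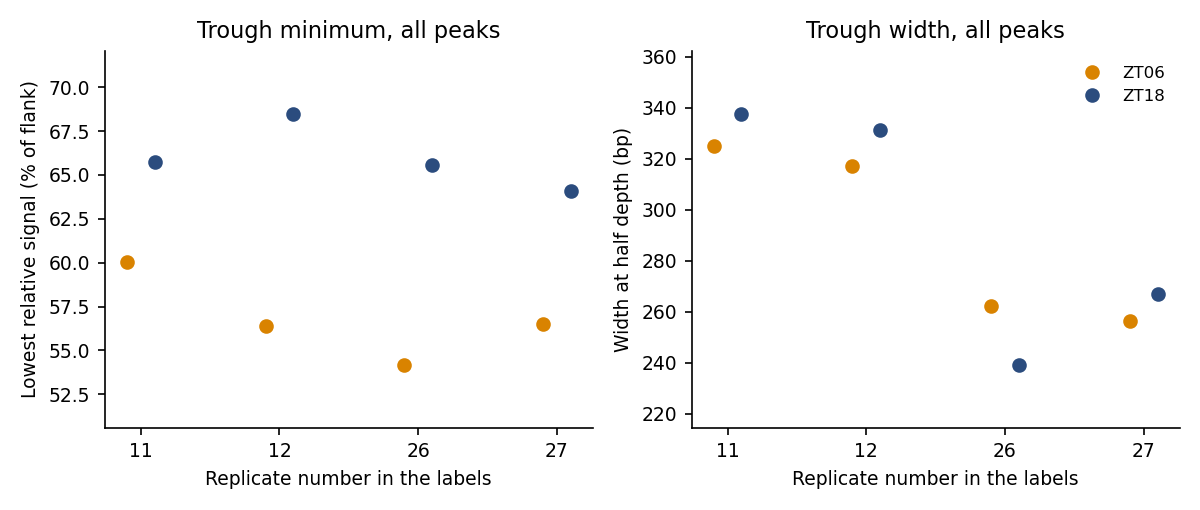
Lowest relative signal (percent of the flank, left) and trough width (bp, right; measured at the level midway between the lowest value and the flank) of the all-peak profile, by replicate number; each point is 1 library at ZT06 or ZT18. The lowest signal is below 61% in every ZT06 library and above 64% in every ZT18 library, while numbers 11 and 12 have the wider troughs at both times.

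The difference between times was graded along the peak list. In the first decile, 322 peaks, relative central signal was 57.6%, 51.7%, 55.6% and 60.3% at ZT06 and 71.3%, 67.2%, 74.02% and 71.6% at ZT18 (numbers 11, 12, 26 and 27). All ZT06 mice lay below all ZT18 mice, with means of 56.3% ± 3.65 at ZT06 and 71.02% ± 2.85 at ZT18 and a difference of -14.7 points (exact permutation p = 0.0286). In the last decile the values were 72.3%, 68.6%, 69.9% and 70.4% at ZT06 and 65.7%, 74.2%, 73.9% and 74.4% at ZT18. There the groups overlapped, with means of 70.3% ± 1.52 at ZT06 and 72.1% ± 4.23 at ZT18 (SD, n = 4 each; exact permutation p = 0.486). The sources used here do not say how the list was ranked.

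All 28 peak sets had the lower mean at ZT06, and in 18 (64.3%) the groups did not overlap and the exact permutation test gave p = 0.0286 and an adjusted p of 0.0444. The sets overlap in their peaks, so this is not a count of independent sites. Of the 10 deciles, 4 were among the 18: the first, the second, the third and the seventh. Their differences were -14.7, -11.1, -9.66 and -7.13 points. The fourth, the fifth and the sixth decile differed by -6.35, -9.61 and -4.93 points with exact permutation p-values of 0.0857, 0.0571 and 0.0571. The eighth and ninth deciles differed by -2.43 and -5.52 points (exact permutation p = 0.229 and 0.171).

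The gradient itself was tested on 1 slope per mouse, the least-squares change in relative central signal per decile. It was 0.85, 1.32, 0.926 and 1.11 points per decile at ZT06 and -0.601, -0.0772, -0.0394 and 0.208 at ZT18 (numbers 11, 12, 26 and 27). All ZT06 slopes were above all ZT18 slopes, with means of 1.05 ± 0.208 at ZT06 and -0.127 ± 0.340 at ZT18 (SD, n = 4 each; difference 1.18, exact permutation p = 0.0286). The first decile was lower than the last in 4 of 4 mice at ZT06 and in 2 of 4 at ZT18. First less last decile averaged -14.0 ± 2.86 points at ZT06 and -1.04 ± 5.32 points at ZT18 (SD, n = 4 each; exact permutation p = 0.0286).

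**Figure D3:**
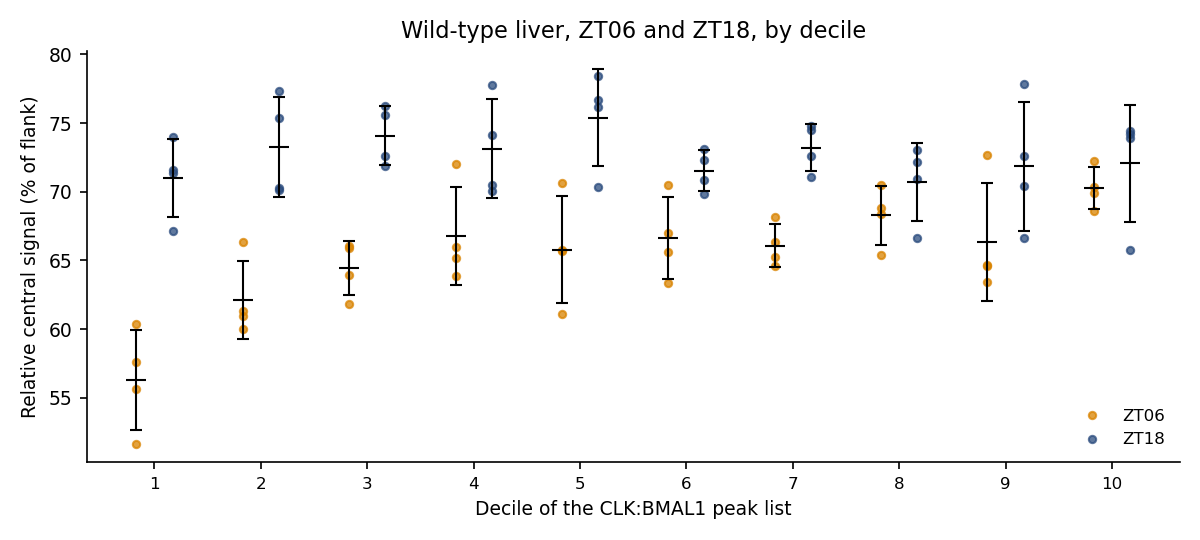
Relative central signal (percent of the flank) by decile of the peak list, with 4 libraries at ZT06 to the left of 4 at ZT18; bars are mean ± SD. The ZT06 mean is 56.3% in the first decile and 70.3% in the last, and the ZT18 means stay between 70.7% and 75.4%.

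The genomic classes stood at different levels. Peaks at TSS, where promoters of active genes are commonly nucleosome-poor, had the lowest relative central signal of the 5 classes in each of the 8 libraries. It was 62.3%, 55.9%, 53.8% and 55.2% at ZT06 and 60.3%, 61.3%, 60.2% and 58.7% at ZT18 (numbers 11, 12, 26 and 27). Number 11 at ZT06 lay above every ZT18 mouse, and the means of 56.8% ± 3.77 at ZT06 and 60.1% ± 1.11 at ZT18 differed by -3.32 points (exact permutation p = 0.143). Leaving out each of the 8 libraries in turn gave differences from -5.16 to -2.33 points, with exact permutation p from 0.0286 to 0.286. Only 1 of the 8 was under 0.05: without number 11 at ZT06 the difference was -5.16 points (n = 3 and 4). Number 11 also had raised TSS shoulders, with 103.9% of the flank from 250 to 500 bp at ZT06 and 104.1% at ZT18, against 87.3% to 95.9% in the other libraries.

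In 3 of the 5 classes, all away from TSS, relative central signal was lower at ZT06 at the smallest p of the exact permutation test, 0.0286 (adjusted p = 0.0444). Which classes reached that p changed with the settings, as given below for intron peaks. Intergenic peaks within 10 kb of a gene had 67.9%, 66.9%, 64.6% and 66.2% at ZT06 and 73.1%, 76.9%, 78.8% and 79.03% at ZT18, a difference of -10.6 points with no overlap. Intergenic peaks beyond 10 kb had 68.6%, 65.03%, 66.1% and 67.1% at ZT06 and 74.2%, 77.9%, 75.1% and 73.8% at ZT18, a difference of -8.55 points with no overlap. Gene body peaks outside introns averaged 68.7% ± 5.15 at ZT06 and 77.9% ± 1.83 at ZT18 (SD, n = 4 each), and here the highest ZT06 mouse (75.2%) and the lowest ZT18 mouse (75.3%) nearly met. In this class p was 0.0571 (exact permutation) without any 1 of the 4 ZT18 libraries. The groups still did not overlap there. With groups of unequal size this test can give 0.0571 without overlap, so that p does not measure a weaker separation.

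Intron peaks, the most numerous class, averaged 67.1% ± 3.18 at ZT06 and 74.5% ± 3.38 at ZT18 (SD, n = 4 each), a difference of -7.35 points. Number 27 at ZT06 (71.03%) lay above number 11 at ZT18 (70.5%), so the groups overlapped (exact permutation p = 0.0571). Whether intron peaks or gene body peaks outside introns reached 0.0286 depended on the settings. In the authors' own signal units, intron peaks had an exact permutation p of 0.0286 and gene body peaks outside introns 0.0571. With the centre at 50 bp or scaling to the whole-window mean, both had 0.0286. With the flank limit farther out, intron peaks had 0.0571 and gene body peaks outside introns 0.0857. With the centre at 250 bp, these were 0.171 and 0.0571. Of the 10 pairs of classes, 2 had a difference between their changes at the smallest exact permutation p of 0.0286: intergenic within 10 kb less TSS (-7.25 points) and intergenic beyond 10 kb less TSS (-5.23 points). Neither passed after adjustment over the 10 pairs (adjusted p = 0.143), so a smaller change at TSS peaks was not shown.

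**Figure D4:**
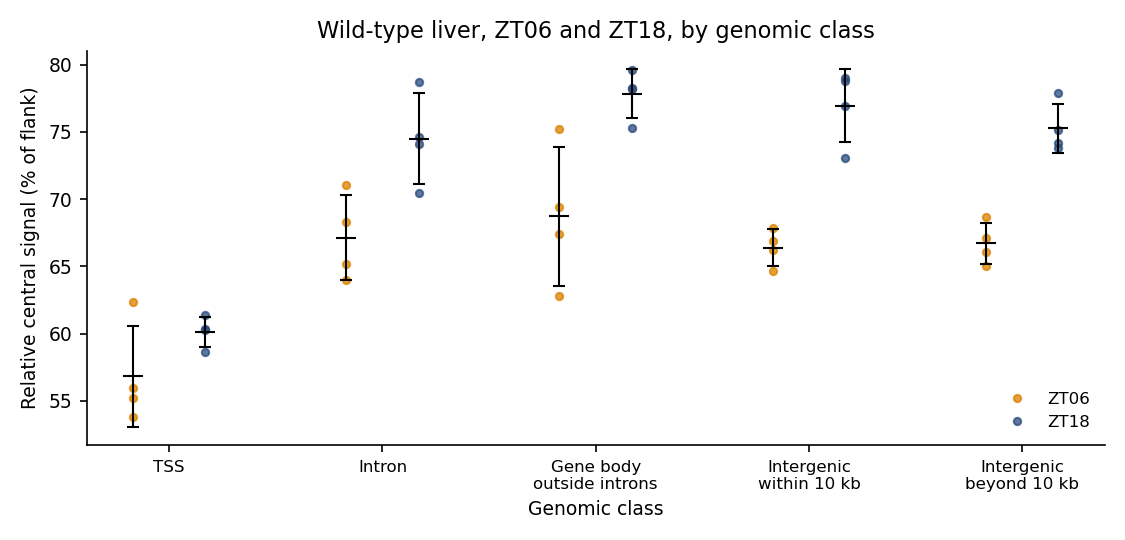
Relative central signal (percent of the flank) by genomic class, with 4 libraries at ZT06 to the left of 4 at ZT18; bars are mean ± SD. TSS peaks are lowest at both times, and the groups stand apart in gene bodies outside introns and in both intergenic classes.

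Among the sets named as the top of a class or of the list, the difference was largest in the top 25% of intergenic peaks beyond 10 kb. Relative central signal there was 59.7%, 57.4%, 62.5% and 55.2% at ZT06 and 75.97%, 78.2%, 77.2% and 74.5% at ZT18 (numbers 11, 12, 26 and 27), a difference of -17.8 points (exact permutation p = 0.0286). It was smallest in the top 200 TSS peaks, at -6.66 points (exact permutation p = 0.0571). The limma fit called 240 bp of the profile lower in the top 25% of intergenic peaks beyond 10 kb, all within the centre, and 10 bp in the top 200 TSS peaks. By the same fit 260 bp were called lower in the first decile, and no position was called over all TSS peaks, where none had an unadjusted p under 0.05, or in the last decile, where 20 bp lower and 20 bp higher at ZT06 did.

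**Figure D5:**
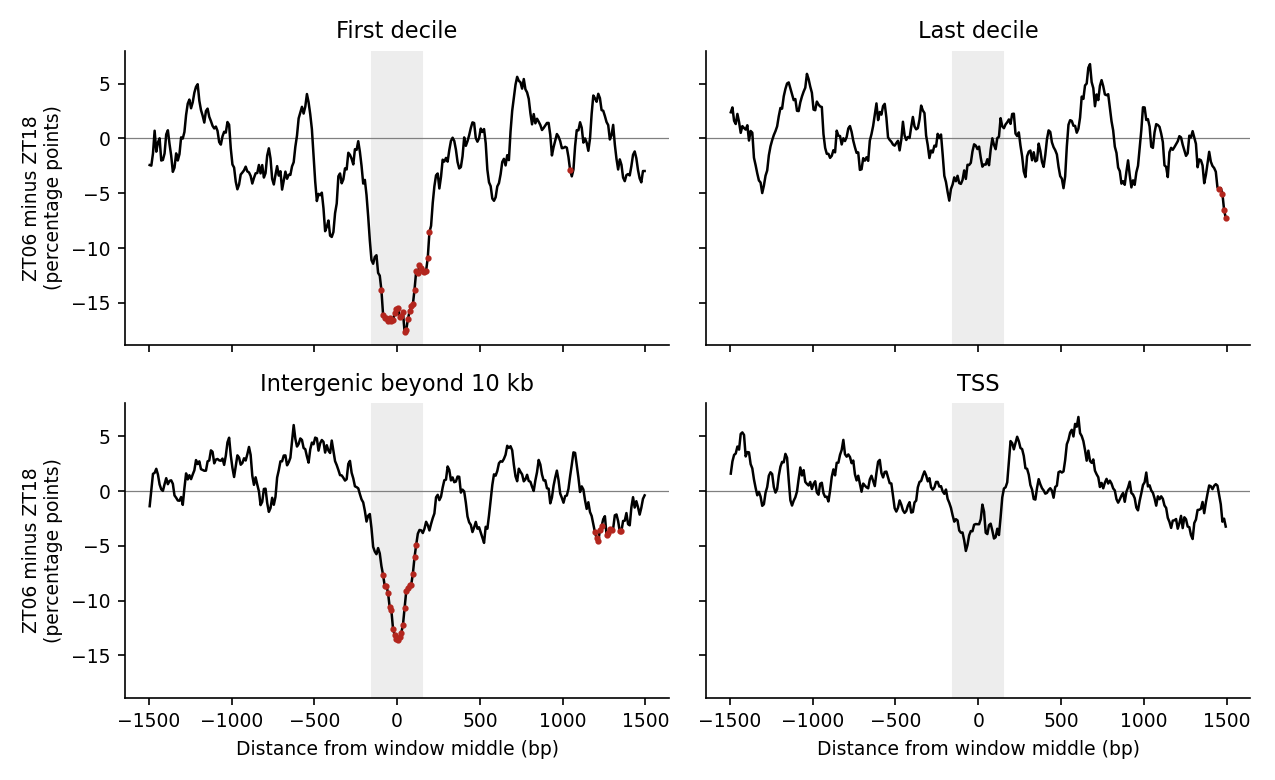
Difference in mean relative signal, ZT06 minus ZT18 (percentage points), against distance from the window middle (bp) in 4 peak sets; red dots mark positions where all 4 ZT06 libraries lie below all 4 ZT18 libraries, and grey marks the centre. In the first decile such positions cover 250 bp of the centre, beyond 10 kb from genes 210 bp, and in the last decile and at TSS none of it.

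Set among all 6 wild-type times, ZT06 had the lowest and ZT18 the highest relative central signal over all peaks. The means were 70.3% ± 2.01 at ZT02, 65.3% ± 1.77 at ZT06, 65.8% ± 1.40 at ZT10, 70.3% ± 3.17 at ZT14, 72.6% ± 1.76 at ZT18 and 72.4% ± 3.13 at ZT22 (SD, n = 4 each). In that order of levels only the step between ZT10 and ZT02, 4.53 points, had an exact permutation p of 0.0286, and it did not pass adjustment over the 5 steps (adjusted p = 0.143). ZT06 and ZT10 differed by 0.483 points (exact permutation p = 0.714), and ZT18 and ZT22 by 0.23 points (exact permutation p = 0.943). In the first decile the means were 65.4% at ZT02, 56.3% at ZT06, 59.2% at ZT10, 69.6% at ZT14, 71.02% at ZT18 and 71.6% at ZT22.

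In Bmal1-/- livers relative central signal over all peaks averaged 77.3% ± 6.79 at ZT06 and 76.2% ± 5.99 at ZT18 (SD, n = 4 each; exact permutation p = 0.8286). The ZT06 minus ZT18 difference per replicate number averaged 1.12 points in Bmal1-/- and -7.34 points in wild type (exact permutation p = 0.0571), and in the first decile it was 2.04 points in Bmal1-/- and -14.7 points in wild type (exact permutation p = 0.0286). None of the 7 sets compared between genotypes passed after adjustment over them (adjusted p = 0.0857 in each). Leaving out each number in turn gave an all-peak exact permutation p of 0.0286 in 1 of 8 cases, without Bmal1-/- number 5 (10.4 points between genotypes), and of 0.0571 or 0.0857 in the other 7. These tests take a difference within each number, although the sources used here do not say that a number pairs mice.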

How the data were processed

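Per the labels' protocols, liver nuclei were crosslinked with formaldehyde and digested with micrococcal nuclease, and DNA of mononucleosome size was sequenced. CASAVA 1.7, Bowtie and mm9 stand in the submitters' processing notes, and the sources used here do not give the Bowtie version, fragment handling or scaling. The authors deposited signal (scaled coverage) averaged over 27 peak sets, 300 positions 10 bp apart, in each library; it holds no per-peak values. Gene body peaks outside introns were derived by subtraction (28 sets in all). Positions are nominal, since the table has no header.

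Computed here were relative signal, relative depth from the worth of 1 covering fragment (100% of values were whole within 0.1 of it), exact two-sided permutation tests (python 3.11.15, scipy 1.17.1) and limma 3.58.1 (R 4.3.3, trended eBayes), tested on simulated data. Benjamini-Hochberg adjustment used 0.05. Adjusted p-values over sets depend on how many overlapping sets reach the smallest p. Neighbouring positions share fragments, so calls are widths. The limma simulation drew noise independently at each position, so it gives no error rate for these calls. Named were all peaks, deciles, classes, the top sets of largest and smallest difference, and the positions of lowest signal and largest difference. Members, sets and tests were chosen with earlier results of these data known. Alternatives varied the centre, flank, scale, filter, fit, replicate block and libraries. The build of the reference genome differs, so no sequence was read.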

Additional observations from a re-analysis of the deposited data

Results flagged for a closer look

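Of 66 groups of 4 libraries examined, 5 held 1 library far from the other 3, where chance gives about 1 in 20. In the top 100 intergenic peaks within 10 kb, number 11 at ZT06 had a relative central signal of 68.8%, with the nearest other ZT06 library at 62.8%. In the top 25% of the same class, which holds many of the same peaks, number 11 at ZT06 had 70.5%, with the nearest at 64.3%. In the ninth decile, number 27 at ZT06 had 72.7%, with the nearest at 64.6%. In the last decile, number 11 at ZT18 had 65.7%, with the nearest at 73.9%. In the top 200 TSS peaks, number 27 at ZT18 had 57.6%, with the nearest at 62.7%.

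The ZT06 minus ZT18 difference was higher in Bmal1-/- than in wild type by 16.8 points in the first decile and by 12.8 points at intergenic peaks within 10 kb (exact permutation p = 0.0286 each, 4 replicate numbers per genotype). These were 2 of 7 sets compared. The other 5 had an exact permutation p of 0.0571 or 0.0857, and the adjusted p over the 7 was 0.0857 in each.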

How the results depend on the processing

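Leaving out each of the 8 libraries in turn kept the all-peak difference between -8.07 and -6.59 points (exact permutation p = 0.0286 in 8 of 8), the slope difference between 1.02 and 1.29, and the count of sets between 16 and 20. That p is the smallest the test can give with a library left out. The called all-peak width then ranged from 0 to 50 bp and the called share of positions from 0.536% to 2.46% of 8400. Leaving out each replicate number of either genotype in turn, at both times, gave a genotype difference from 7.06 to 10.4 points. With the centre widened to 250 bp, the all-peak difference was -5.11 points (exact permutation p = 0.0571) and 0 sets passed (14 before adjustment). The genotype difference was 9.64 points with the centre at 50 bp and 0.641 signal units without scaling (exact permutation p = 0.0286 each). The slope difference was 1.42 in numbers 11 and 12 alone and 0.932 in numbers 26 and 27 alone, a choice made after seeing the data. The limma width of the all-peak profile, 20 bp, was 0 bp with either other flank limit, the whole-window mean, no scaling, log2 values with the smaller pseudocount, no trend, a filter on the lowest 25% of positions, all 24 wild-type libraries, all 47 libraries, the replicate block, or either pair of numbers, and 210 bp in its own fit. The share of positions called, 2.88%, was 1.40% with the whole-window mean, 1.05% with 24 libraries, 0.31% with 47, 0% with that filter or either pair of numbers, and 5.27% with sets fitted singly. That filter drops the positions of lowest mean signal, where the trough lies, so its 0 values cannot speak to the trough. With it, the all-peak width at an unadjusted limma p under 0.05 went from 230 bp to 0 bp. Differences in 2 bands changed sign: from 250 to 500 bp 0.0342 with the flank beyond 750 bp and 0.794 with the window mean, and between -1.31 and 0.382 with a library left out; from 500 to 750 bp 0.400, 1.195, and between -0.539 and 0.246. To check for pairing by number, each library's deviation from the mean profile of its own time was taken. These deviations, not the profiles themselves, correlated between same-numbered libraries at 0.194, 0.101, 0.0721 and 0.139, best with their own number in 2 of 4. That check cannot see a grouping of numbers 11 and 12 against 26 and 27, such as trough width showed at ZT06 and ZT18. ZT06 and ZT18 were compared without pairing, and those tests treat the 8 mice as exchangeable. The genotype tests use differences within a number. Under the replicate block the all-peak difference of -7.34 had an exact sign-flip permutation p of 0.125, the smallest that 4 pairs allow. Beyond what the filter drops, the causes of these shifts were not tested.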
